A study of Mus musculus with 6 samples.

Results

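The data described here are the 2 RNA-seq libraries of a mouse fibroblastic reticular cell (FRC) line kept in medium conditioned by the same line, out of 6 libraries in all. They were taken by their group label, CCM (FRC), and carry replicate numbers 1 and 2. The other 4 libraries are of the same line in medium conditioned by the mouse mammary tumour lines 4T1 or 67NR, and were not used. CCM was made by growing FRCs for 24 h in plain RPMI, and was supplemented with 2% fetal bovine serum and penicillin-streptomycin. The cells stayed in it for 96 h, with fresh conditioned medium every 48 h, so the profile is that of cells in their own secreted products at low serum. No genotype, transgene, strain or clone is named for the line. Whether the 2 libraries came from separate cultures is not stated, so the spread between them may be technical. Total RNA (500 ng per sample) was selected for poly(A), made into directional libraries and sequenced on an Illumina NextSeq500.

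Fibroblastic reticular cells are the contractile fibroblasts of lymph nodes. They build and wrap the collagen fibres of the reticular network, express podoplanin and platelet-derived growth factor receptors, and in the T cell zone secrete the chemokines CCL19 and CCL21 and the survival factor IL-7. Lymphotoxin and TNF signals from leukocytes drive their maturation in the node.

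The 6 genes taken as identity markers of the line (Pdpn, Cxcl12, Col1a1, Acta2, Pdgfrb and Vcam1) were all expressed, whereas the T zone chemokines Ccl19 and Ccl21a and the surface marker Thy1 had no counts in either library. Much of the sequence of Ccl19 and Ccl21a is shared with other genes, so their levels are uncertain (below). Levels between genes are given as transcripts per 1000000 (TPM), which divide the reads of a gene by the length of its exons. A gene was called expressed at 1 TPM or more in both libraries. Levels are called low below 10, medium from 10 to 100 and high from 100 TPM on the lower library, and trace stands for some counts below that threshold. In what follows each pair of values is that of replicate 1 and replicate 2. Protein-coding genes were expressed in 49.8% of cases (10753 of 21601), which is the background for each count of list members. Their median was 1.08 TPM over all of them and 18.1 TPM over those expressed. The 61 lists used below hold 998 distinct genes, of which 527 (52.8%) were expressed and 230 had no counts, with a median of 1.87 TPM.

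The libraries held 19262738 and 13581510 counts, so that 1 count stood for 0.0519 and 0.0736 counts per 1000000 (CPM). A gene with no counts in either has an upper limit of 3 counts over both libraries, or 0.0913 CPM. Limits of this kind cover counting error only. Of 53365 gene symbols matched to the annotation, 13424 were expressed (25.2%), and 142 and 171 genes lay just inside (1 to 1.1 TPM) and just outside (0.9 to 1 TPM) the threshold. Olfactory and vomeronasal receptor genes, which fibroblasts do not use, served as the background of the threshold, and 1 of 1420 passed it, Vmn2r85 at 2.92 and 3.76 TPM, with 28.6% of its sequence shared with other genes. Of the expressed genes, 622 (4.63%) differed by 1.5 times or more between the libraries, 539 of them among the 4927 genes at low level and 9 among the 1518 at high level. Pearson's r of log2 TPM over the expressed genes was 0.991, a description across genes that are not independent. All 13 mitochondrial mRNAs were higher in replicate 2, by 1.19 to 1.97 times, with mt-Atp6 at 5095 and 10085 TPM, and their part in other levels was not tested. Of the 13, 7 share 25% or more of their sequence with other genes, and mt-Atp6 shares 99.5%. For mt-Nd1, which shares none, the ratio was 1.39.

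The largest shares of the counts went to matrix genes. By CPM, the counts scaled to a library of fixed size without regard to length, Col1a1, the alpha 1 chain of type I collagen, came first with 14099 and 13410 CPM. Fn1, fibronectin, followed with 13533 and 13917 CPM. Col3a1, type III collagen of reticular fibres, had 7940.2 and 7400.4 CPM. The chemokine gene Cxcl12 came next, with 6088 and 6435 CPM, ahead of every gene for a cytoskeletal or ribosomal protein. Ribosomal protein genes such as Rplp1 share much of their sequence with other genes (75.1% for Rplp1), so their place is uncertain. Thbs1 (thrombospondin 1), the elongation factor gene Eef2, Fbln2 (fibulin 2), Eef1a1, Sparc (osteonectin) and Cemip, which takes part in hyaluronan breakdown, completed the first 10. Adamts1, Hsp90ab1, Acta2, Vim and Sfrp2 came next. The first 10 genes of each library took 6.95% and 6.82% of its counts and shared 9 names. The first 1000 took 52.1% and 52.4%. Collagen genes alone held 3.36% and 3.19% of the counts, and the 121 genes of the collagen and matrix lists held 8.99% and 8.89%.

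Per length, the order was a different one. Of the 25 genes with the highest TPM, 12 are annotated as processed pseudogenes, 4 are mitochondrial mRNAs and 7 are nuclear protein-coding genes. Many pseudogenes repeat the sequence of an expressed gene. Among the 453 processed pseudogenes at high level the median share of 31-base stretches also present in another gene's transcripts was 81.0%, so reads from a gene and its copies cannot be told apart there. In 987 expressed protein-coding genes 25% or more of the stretches are shared, so part of their reads is affected and their level is uncertain. Gapdh, the glycolytic gene often used as a control, was at only 4.17 and 4.36 TPM, with 28.1% of its stretches shared. The part of sharing in that level was not tested. Because of the pseudogenes, after the data were seen, the ranks below were taken over nuclear protein-coding genes. Genes with shared stretches remain in that order, such as Eef1a1 (51.5%) and Rplp1 (75.1%), so the ranks are approximate.

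Lgals1, which encodes the carbohydrate-binding protein galectin 1, led that order with 5809.9 and 5653 TPM, none of its stretches being shared. Col1a1 was next at 5443 and 5210.0 TPM. Acta2, smooth muscle actin, was at 4005 and 4149 TPM, and Sfrp2, a secreted inhibitor of Wnt signals, at 3854 and 3802 TPM. The genes between and around them were Eef1a1, Rplp1, Eef2 and Hsp90ab1 of translation and protein folding. Fn1, Sparc and Serpinh1, the collagen chaperone, followed at 2695 to 3037 TPM. Cxcl12 was 23rd, at 1887 and 2007 TPM. The plot of level against rank shows nearly the same curve for both libraries.

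**Figure D1:**
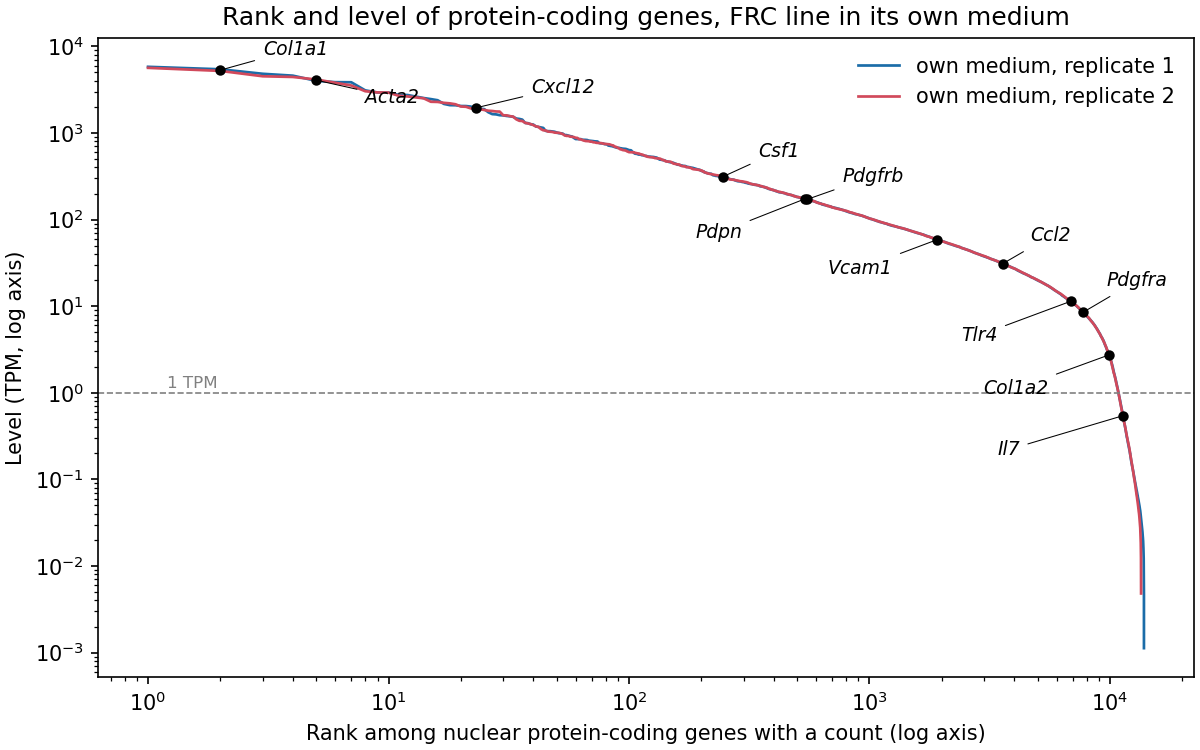
Level of each nuclear protein-coding gene with a count (TPM, log axis) against its rank in the same library (log axis), as a line for each of the 2 libraries; black points mark named genes at their mean over both. The lines overlie each other down to about 1 TPM, with Col1a1, Acta2 and Cxcl12 near the top and Col1a2 and Il7 near the lower end.

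Of the 6 identity markers, 5 were at high level. Cxcl12 (chr6:117168535-117181367, GRCm38), a chemokine that holds CXCR4-bearing leukocytes and progenitors in place, had 117265 and 87399 counts. Pdpn (chr4:143267431-143299564), the glycoprotein that engages CLEC-2 on dendritic cells and platelets, was at 166 and 181 TPM. Pdgfrb, a receptor of mural and stromal cells, was at 177 and 165 TPM. Vcam1 (chr3:116109949-116129688), an adhesion molecule for lymphocyte integrins, was the lowest of the 6 with 60.5 and 57.1 TPM. Its mean of 58.8 TPM became 107 when the length of the longest transcript was used in place of all exons, so its class depends on the gene model. For Col1a1 (chr11:94936224-94953042) and Acta2 (chr19:34241090-34255590) the levels are those given above. For none of the 6 did the libraries differ by as much as 1.5 times. In bulk RNA, fewer cells that express a gene and less of its RNA per cell cannot be told apart.

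Among other surface proteins of lymph node stroma, 11 of 22 were expressed, with a median of 4.50 TPM. Itgb1, the common beta 1 chain of matrix-binding integrins, was highest at 993 and 1039 TPM. Cd248 (endosialin) had 428 and 401 TPM. Il6st, the shared signal chain gp130, had 142 and 143 TPM. The lymphotoxin beta receptor Ltbr and the TNF receptor Tnfrsf1a, which carry the signals that mature reticular cells in the node, were close to each other, at 115 and 115 TPM and 118 and 117 TPM. Eng, a co-receptor for TGF-beta, was at 116 and 116 TPM. Medium levels were found for Cd44 (42.9 and 44.4 TPM), Ly6a (44.6 and 39.9 TPM) and Cd34 (16.3 and 16.8 TPM), the last of which marks adventitial and medullary stroma. Pdgfra, an FRC receptor in tissue, was low, with 8.7 and 8.32 TPM, about 20.1 times below Pdgfrb. Ly6c1 was low too, at 8.94 and 8.73 TPM, and its stretches and those of Ly6a are shared with other genes (46.8% and 31.9%).

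Several surface genes by which reticular cells are sorted or classed were below the threshold. Thy1 (CD90; chr9:44043384-44048579) had no counts, which allows at most 0.0775 TPM, and only 1.26% of its stretches are shared. Icam1, a partner of Vcam1 in lymphocyte adhesion, was at 0.211 and 0.0861 TPM. Fap, the fibroblast activation protein, was at 0.232 and 0.166 TPM (10 and 5 counts). Dpp4, Nt5e, Itga7 and Enpp2 were at trace level, as were Madcam1 and Cr2, which mark marginal reticular and follicular dendritic cells. Bst1 had 1 count in replicate 2 and none in replicate 1. Cadm3 had none.

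The secreted and nuclear products of FRCs also ran from high level to no counts. Of them, 6 of 16 (37.5%) were expressed, or 4 at a threshold of 2 TPM, with a median of 0.144 TPM. The share was 50% for surface genes (11 of 22) and 49.8% for all protein-coding genes. The lists are short, and the difference between them was not tested. Clu (clusterin) was at 115 and 113 TPM and the alarmin Il33 at 50.6 and 44.6 TPM. Bgn, a small proteoglycan, reached 10.3 and 10.6 TPM. Grem1, a BMP antagonist of T zone reticular cells, was near the threshold at 1.998 and 1.58 TPM, and so was Tnfsf11 (RANKL) at 1.41 and 1.01 TPM. Lmo7, an actin-linked adaptor, was at 2.2 and 2.7 TPM. Il7, the T cell survival factor, stayed below it with 0.557 and 0.53 TPM from 24 and 16 counts. Ch25h, which makes an oxysterol guide for immune cells, was at 0.284 and 0.271 TPM, and Tnfsf13b (BAFF) had a single count. Ccl19, Ccl21a, the B cell chemokine Cxcl13, Inmt, Fcer2a and the transcription factor genes Nkx2-3 and Tlx1 had none. The limit for Cxcl13 was 0.202 TPM. For Ccl19 and Ccl21a it was 0.268 and 0.267 TPM, but 58.8% and 80.6% of their stretches are shared with other genes, so their levels are uncertain.

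The promoter windows of Pdpn, of the abundant Cxcl12, of the collagen chain Col1a2, which was near the threshold (below), and of Ccl19, which had no counts, are printed because genes of different level differ in CpG content there. The windows are from RefSeq (GRCm38.p6), run 5′ to 3′ on the strand of the gene from 250 bases before to 50 after its start, and have each CpG in capitals. They lie at chr4:143299515-143299814 (minus strand), chr6:117168285-117168584 (plus), chr6:4505368-4505667 (plus) and chr4:42756316-42756615 (minus), and hold 7, 20, 13 and 10 CpG sites.
Pdpn: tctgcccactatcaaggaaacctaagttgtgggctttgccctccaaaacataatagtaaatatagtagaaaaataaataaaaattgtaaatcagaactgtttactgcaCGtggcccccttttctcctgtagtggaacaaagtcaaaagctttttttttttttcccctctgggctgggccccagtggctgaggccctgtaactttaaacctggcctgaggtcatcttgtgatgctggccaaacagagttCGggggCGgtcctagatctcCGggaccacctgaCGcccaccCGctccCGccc
Cxcl12: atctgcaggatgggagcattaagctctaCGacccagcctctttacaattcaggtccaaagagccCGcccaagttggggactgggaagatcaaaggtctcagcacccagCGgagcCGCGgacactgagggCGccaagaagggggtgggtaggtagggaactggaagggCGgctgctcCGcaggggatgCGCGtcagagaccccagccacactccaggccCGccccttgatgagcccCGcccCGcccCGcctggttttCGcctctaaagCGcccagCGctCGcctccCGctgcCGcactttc
Col1a2: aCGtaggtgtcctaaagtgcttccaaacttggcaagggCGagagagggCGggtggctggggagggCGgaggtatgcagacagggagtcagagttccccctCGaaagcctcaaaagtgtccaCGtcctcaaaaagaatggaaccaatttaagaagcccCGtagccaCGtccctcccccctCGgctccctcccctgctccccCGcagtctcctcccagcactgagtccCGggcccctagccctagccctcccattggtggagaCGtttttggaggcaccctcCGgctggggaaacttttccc
Ccl19: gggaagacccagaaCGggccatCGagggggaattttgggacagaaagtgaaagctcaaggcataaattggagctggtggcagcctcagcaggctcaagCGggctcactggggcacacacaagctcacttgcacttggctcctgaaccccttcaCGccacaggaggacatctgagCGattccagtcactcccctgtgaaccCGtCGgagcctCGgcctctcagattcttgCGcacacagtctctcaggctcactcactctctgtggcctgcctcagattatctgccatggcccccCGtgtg

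Over all genes the level classes did differ in CpG content. Among 16516 protein-coding genes with a window in that table, the median was 3 CpG in 300 bases for genes with no counts, 8 for trace, 20 for low, 23 for medium and 22 for high level. A window with 10 or more CpG was found for 20.3% of genes with no counts and for 88.7% at high level, with low and medium level at 79.9% and 89.7%. Of the 4 genes printed, Pdpn (high level) and Col1a2 (low level) had fewer CpG sites than the median of their class, and Ccl19 (no counts) had more. Cxcl12 was close to its median. The first listed window was used for each gene, and these are shares over genes, given as a description.

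General mesenchymal genes were expressed in 20 of 23 cases, with a median of 26.0 TPM. Vim (vimentin, 1736 and 1772 TPM) and S100a6 (1918 and 1845 TPM) stood beside Lgals1, Fn1 and Sparc among the most abundant. The transcription factor genes Prrx1 (148 and 153 TPM) and Snai2 (101 and 111 TPM), which act in limb and body wall mesenchyme and in the mesenchymal transition, were at high level. Snai1, Zeb1 and Tcf4 were at medium level and Zeb2 and Twist2 at low level. Twist1, another mesenchymal transcription factor gene, had 1 count in all and no shared stretches, and Tcf21 and Meox2 had none. Small leucine-rich proteoglycan genes, whose products bind collagen fibrils, spanned a wide range, with Fmod (fibromodulin) at 169.8 and 174 TPM, Dcn (decorin) at 21 and 21.2 TPM and Lum (lumican) at 2.15 and 1.46 TPM.

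Markers of other cell types were mostly at or near 0, as the plot of stroma genes beside those of other cells shows. Of 18 leukocyte genes, 14 had no counts, among them Ptprc (CD45, limit 0.0127 TPM), Cd3e and Adgre1. The member expressed was Lyz2, a lysozyme of myeloid cells, at 8.9 and 11.3 TPM, with 32.8% of its stretches shared. Of 14 endothelial genes, Emcn was expressed (5.47 and 5.87 TPM), while Pecam1 was at 0.19 and 0.151 TPM and Erg, Cldn5 and Prox1 were at 0. Of 12 epithelial genes, Krt19 was expressed (8.79 and 7.59 TPM), and Epcam and Krt18 were at 0. Summed over each list, leukocyte genes came to 10.6 and 14.05 TPM, endothelial genes to 7.67 and 8.87 TPM and epithelial genes to 10.6 and 9.24 TPM. At a threshold of 0.5 TPM these counts of 1, 1 and 1 became 3, 3 and 2, and without Lyz2, whose reads are uncertain, the leukocyte count was 0.

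Genes of neighbouring mesenchymal fates were expressed in part. Of 13 pericyte and smooth muscle genes, 6 were expressed, and the list summed to 167 and 164.5 TPM. Smtn (smoothelin) was at 80.03 and 77.6 TPM and the Notch receptor gene Notch3 at 67.5 and 64.7 TPM. Cnn1, Mcam, Actg2 and Cspg4 were at low level, Myh11, the smooth muscle myosin, was at 0.381 and 0.741 TPM, and the pericyte channel genes Kcnj8 and Abcc9 were at 0. The cartilage and bone regulators Sox9 (44 and 50.8 TPM) and Runx2 (14.4 and 15.2 TPM) were at medium level together with Col2a1 (12.4 and 13.7 TPM), whereas Acan, Bglap and Ibsp had no counts. Pparg (5.34 and 4.7 TPM), Cebpa (2.64 and 3.56 TPM) and Fabp4 (9.08 and 9.12 TPM) of the adipocyte list were low and Adipoq, Plin1 and Lep were at 0. Tnnt2 alone of 8 skeletal muscle genes was expressed (8.18 and 8.21 TPM). Of the glial and neuronal list, the neuronal tubulin Tubb3 was at 108 and 128 TPM and S100b at 6.03 and 6.83 TPM, with Sox10 at 0. Msln (5.41 and 3.43 TPM) and Upk3b (1.64 and 1.7 TPM) of 7 mesothelial genes were expressed, with Wt1 at 0. The part of other cells in these levels was not tested.

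**Figure D2:**
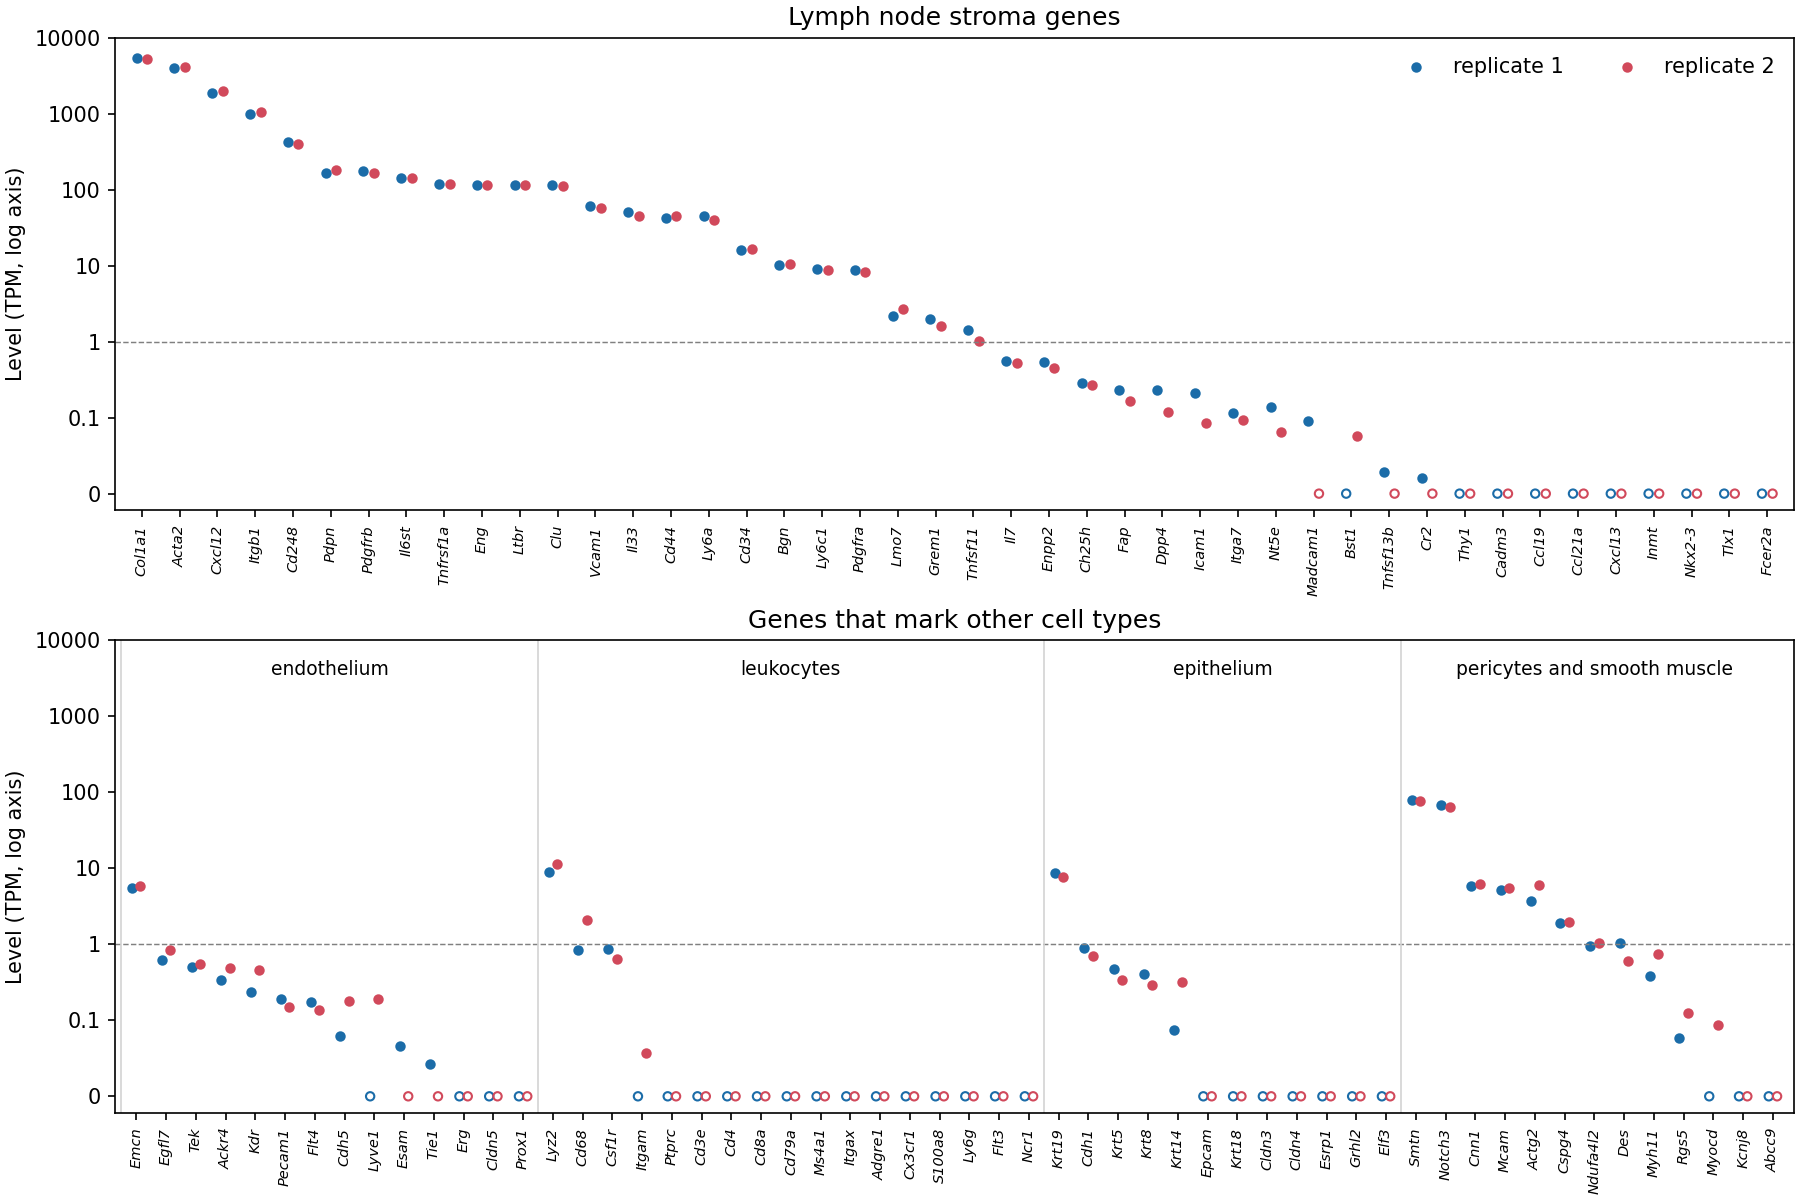
Level of genes (TPM, log axis, with 0 set apart as open circles) in replicate 1 (blue) and replicate 2 (red), for lymph node stroma genes above and for genes that mark 4 other kinds of cell below; the dashed line is 1 TPM. Stroma genes run from Col1a1 at 5443 and 5210 TPM down to genes with no counts, while endothelial, leukocyte and epithelial genes lie at or below 11.3 TPM, the value of Lyz2 in replicate 2.

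Matrix genes were among the most abundant products, but chains that assemble together were not expressed alike, as the plot of chains shows. Type I collagen is a heterotrimer of alpha 1 and alpha 2 chains. Col1a1 was at 5443 and 5210.0 TPM and Col1a2 (chr6:4504814-4541544) at only 2.29 and 3.19 TPM, a ratio of 2381 in replicate 1 and 1634 in replicate 2. Col1a2 had 216 and 211 counts, and 0.0719% of its stretches occur elsewhere. In type VI collagen, a beaded filament of 3 chains, Col6a1 had 851 and 804 TPM and Col6a2 305 and 285 TPM, but Col6a3 1.41 and 0.753 TPM, which is 605 and 1067 times below Col6a1. None of the stretches of Col6a3 are shared. By contrast, the paired chains Col5a1 and Col5a2 of type V collagen, which regulates fibril width, were alike (ratio 0.970 and 0.967), and Col4a1 exceeded its basement membrane partner Col4a2 by 1.65 and 1.63 times.

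In all, 21 of 36 collagen genes were expressed. Col3a1 was at 2049.5 and 1922 TPM and Col5a2 at 504 and 484 TPM. Besides Col4a1 (457 and 435 TPM), the X-linked chain genes Col4a5 (260.3 and 249.5 TPM) and Col4a6 (51.2 and 46.9 TPM) were expressed, and Col4a3 and Col4a4 were at trace level. Col12a1, which decorates fibrils, had 206 and 219 TPM. Col11a1 and Col8a1 each had 119 TPM in replicate 1 and 122 TPM in replicate 2. Col14a1, common in fibroblasts, was low at 2.74 and 2.89 TPM, and Col15a1 was at 0.352 and 0.739 TPM.

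Laminins, the other scaffold of basement membranes, are trimers of 1 alpha, 1 beta and 1 gamma chain. The beta and gamma chain genes Lamb1 (78.3 and 84 TPM), Lamb2 (70.5 and 66.6 TPM) and Lamc1 (83.1 and 82.5 TPM) were at similar levels. The alpha chain genes reported here, which leave out Lama3, were lower. Lama5 had 11.5 and 11.3 TPM, 7.22 and 7.31 times below Lamc1, and Lama4 had 6.98 and 6.27 TPM, 11.9 and 13.2 times below it. Lama1 and Lama2 were at trace level. The linkers Nid1 (87.1 and 85.7 TPM) and Nid2 (154 and 146 TPM) and the heparan sulfate proteoglycan Hspg2 (perlecan, 145 and 151 TPM) were expressed.

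Of 28 matrix glycoprotein genes, 22 were expressed, 11 of them at high level, with a median of 78.4 TPM. Fbln2 had 1905 and 1881 TPM, Thbs1 2167 and 2229 TPM and Fbn1, the microfibril protein fibrillin 1, 419 and 431 TPM. Elastin, Eln, was low (5.28 and 5.87 TPM), whereas the elastic fibre helpers Fbln5 (202 and 208 TPM) and Efemp2 (146 and 154 TPM) were high. Postn (periostin) was at 154 and 143 TPM and Tnc (tenascin C), a protein of remodelling matrix, at 71.4 and 79.96 TPM. The genes that process collagen were expressed without exception (15 of 15). Serpinh1 led with 2760.4 and 2695 TPM, followed by the crosslinking lysyl oxidase Lox (1606 and 1808 TPM) and the prolyl hydroxylase subunit P4hb (1427 and 1375 TPM).

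Proteases and their inhibitors were expressed for 18 of 24 genes. Adamts1 was at 1652 and 1767 TPM and the gelatinase Mmp2 at 542 and 512 TPM, with its membrane activator Mmp14 at 344 and 298 TPM. The inhibitors Timp1 (438 and 413 TPM), Timp2 (931 and 907 TPM) and Timp3 (529.7 and 543 TPM) were all high. The metalloproteinase genes Mmp3, Mmp9 and Mmp13 were at trace level and Mmp10 had no counts. Among 25 integrin chain genes, 14 were expressed. After Itgb1 came Itgb5 (202 and 187 TPM), Itga5 (93.3 and 90.01 TPM), the fibronectin receptor, and Itgav (79.8 and 85.9 TPM), while the collagen receptors Itga11 (23.9 and 21.9 TPM) and Itga1 (4.72 and 5.32 TPM) were lower and Itga2 had counts in replicate 1 only.

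The contractile machinery was expressed in 26 of 28 genes, 18 at high level, and had a median of 203 TPM. Behind Acta2 and Actb (2635 and 2642 TPM), the tropomyosins Tpm4 (1175 and 1267 TPM) and Tpm1 (742 and 729.6 TPM) and the filamin gene Flna (812 and 829 TPM) were highest. Nonmuscle myosin heavy chain Myh9 was at 403 and 413 TPM and the regulatory light chain Myl9 at 103 and 104 TPM. Mylk, the kinase of that light chain, was low (6.84 and 6.6 TPM). Tagln (SM22), which usually accompanies smooth muscle actin, was at 2.38 and 2.74 TPM, 1682 and 1515 times below Acta2, but 62.2% of its stretches are shared, so this level is uncertain. Actc1 and Myh11 were the members below the threshold.

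Many contractile genes carry at their promoter a CArG box, the element bound by serum response factor. Matching CC, any 6 bases that are A or T, then GG reads both strands at once, since the element is its own reverse complement. In the 300-base RefSeq windows it was found for 6 of the 24 contractile genes that have one (Acta1, Actc1, Actg1, Cnn2, Myl9 and Vcl) and for 1.53% of all windows. The windows of Cnn2 (chr10:79988350-79988649, plus strand) and Myl9 (chr2:156775214-156775513, plus strand) are printed as examples, chosen after the matches were seen, with the box in capitals. Cnn2, a calponin, was at 717 and 754 TPM. The window of Acta2 held no match to these letters.
Cnn2: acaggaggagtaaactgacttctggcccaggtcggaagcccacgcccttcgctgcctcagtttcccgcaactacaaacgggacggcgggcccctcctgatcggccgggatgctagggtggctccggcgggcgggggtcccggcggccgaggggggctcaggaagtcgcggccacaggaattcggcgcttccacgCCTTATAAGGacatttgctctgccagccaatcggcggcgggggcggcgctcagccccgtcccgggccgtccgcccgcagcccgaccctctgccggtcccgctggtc
Myl9: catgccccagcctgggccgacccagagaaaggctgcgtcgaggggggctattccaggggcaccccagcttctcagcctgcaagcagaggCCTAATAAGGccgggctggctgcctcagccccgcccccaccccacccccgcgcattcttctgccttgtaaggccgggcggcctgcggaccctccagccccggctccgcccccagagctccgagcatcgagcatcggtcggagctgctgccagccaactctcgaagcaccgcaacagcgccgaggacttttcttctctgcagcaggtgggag

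**Figure D3:**
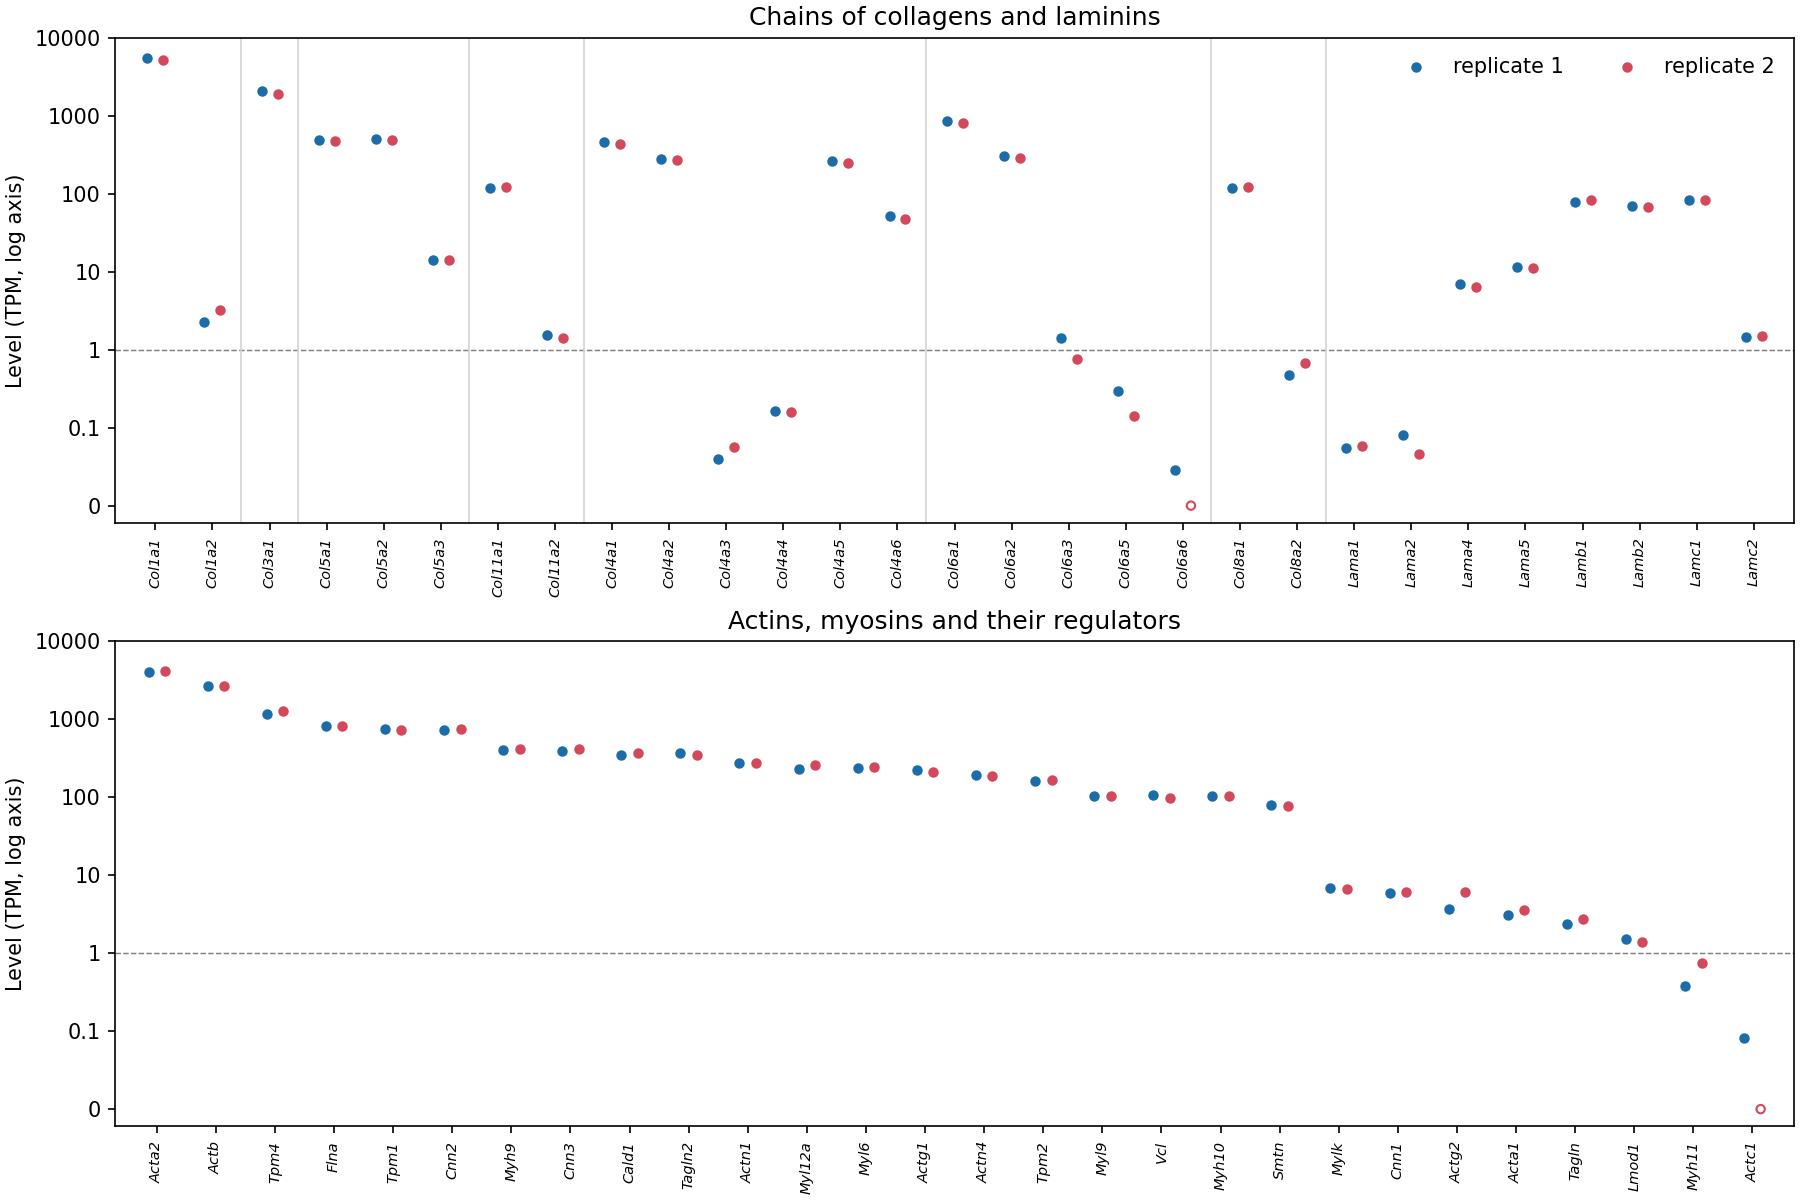
Level (TPM, log axis, 0 set apart as open circles) of collagen and laminin chain genes grouped by protein (above) and of contractile genes in order of level (below), in replicate 1 (blue) and replicate 2 (red); the dashed line is 1 TPM. Col1a2 (2.29 and 3.19 TPM) and Col6a3 (1.41 and 0.753 TPM) lie far below Col1a1, Col6a1 and Col6a2, and Tagln, Myh11 and Actc1 lie far below Acta2.

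Chemokines were present on the ligand side and nearly missing on the receptor side. Of 36 ligand genes 13 were expressed, and of 24 receptor genes 3 (12.5%), with a median of 0 TPM, against the 49.8% and 1.08 TPM of all protein-coding genes. Besides Cxcl12, the neutrophil attractant Cxcl1 had 109 and 107 TPM and the monocyte attractants Ccl7 and Ccl2 had 80.5 and 83.9 TPM and 27.7 and 34.5 TPM. The Ccl2 levels rest on 240 and 209 counts, and these 3 genes kept the same order in both libraries. Cx3cl1 (fractalkine) was at 36.6 and 36 TPM. Ppbp and Cxcl15 were near 10 TPM, and Ccl5 was low at 3.97 and 2.93 TPM. Interferon-linked Cxcl10 was at 0.234 and 0.0834 TPM, and Cxcl9, Cxcl11 and Cxcl2 had no counts.

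The receptor genes expressed were Cmklr1 (24.8 and 22.2 TPM), the scavenging CXCL12 receptor Ackr3 (9.66 and 7.96 TPM) and Ccr10 (1.22 and 1.52 TPM). Cxcr4, the signalling receptor of CXCL12, had no counts (limit 0.128 TPM), so Ackr3 was the CXCL12 receptor measured, at 195 and 252 times below the ligand. Another 15 receptor genes had none either, among them Ccr2 and Cxcr2, which receive CCL2, CCL7 and CXCL1. Rarres2, the gene of chemerin, which binds CMKLR1, had no counts.

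Of 65 cytokine genes, 18 were expressed. Csf1, the growth factor of macrophages, was by far the most abundant with 299 and 327 TPM, 346 and 504 times its receptor Csf1r (0.866 and 0.65 TPM). Il34, the other CSF1R ligand, was at 8.73 and 7.67 TPM. Kitl (stem cell factor) was at 21.5 and 25.8 TPM and Clcf1, of the IL-6 family, at 14.8 and 14.7 TPM. Il6, a product of activated FRCs, was near the threshold with 1.9 and 2.01 TPM, as were Lif (3.45 and 2.89 TPM), Il15 (2.73 and 2.57 TPM) and Tslp (2.77 and 2.26 TPM). Tnfsf12 (TWEAK) was at 25.7 and 22.9 TPM, though 47.4% of its stretches are shared. No gene of the 8 interferons listed had a count, nor had Tnf, Lta, Ltb, Osm, Il1b, Csf2 and Csf3.

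Of 80 cytokine receptor genes, 41 were expressed. Among receptors of the signals without counts, Csf2rb and Csf3r had no counts either, and Ifnlr1, of the lambda interferon receptor, had 1 count in all. The interferon receptor chains Ifngr1 (50.1 and 54.1 TPM), Ifngr2 (69.1 and 63.4 TPM), Ifnar1 (48.6 and 47.5 TPM) and Ifnar2 (33.1 and 31.9 TPM) were at medium level. The gp130 partners Lifr (48.3 and 52.5 TPM) and Osmr (44.1 and 45.1 TPM) were well above the IL-6 binding chain Il6ra (2.98 and 2.56 TPM). Il17ra (13.6 and 12.3 TPM) and Il17rc (68.1 and 75.9 TPM), the chains of the IL-17A receptor, were expressed, as was Il1r1 (14.2 and 16.6 TPM). Of the TNF receptor family, the decoy receptor Tnfrsf11b (osteoprotegerin) was at 78.1 and 72.1 TPM, above its ligand Tnfsf11, and Fas at 68.8 and 67.8 TPM. Cd40 had a single count. Il7r, Il10ra and Il2ra had none.

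Of 19 Toll-like receptor genes and partners, 9 were expressed. Tlr2 was the highest receptor at 53 and 52.4 TPM, before Tlr3, the sensor of double-stranded RNA, at 24 and 25.8 TPM. Tlr4, the receptor for lipopolysaccharide and for damage signals, was at 11.8 and 11 TPM, and its co-receptor Ly96 (MD-2) at 10.3 and 7.91 TPM. Cd14, which delivers ligand to them, was near the threshold at 2.35 and 1.63 TPM, and Lbp was below it at 0.572 and 0.466 TPM. The TLR2 partners Tlr1 and Tlr6 were at 4.31 to 4.95 TPM. The endosomal receptor genes Tlr8 and Tlr9 had no counts, and Tlr7 had them in replicate 1 only. The adaptors Myd88 (27.5 and 26.1 TPM) and Ticam1 (27.1 and 23.4 TPM) were both expressed, within 12 of 15 adaptor and kinase genes, while the bridging adaptor Ticam2 had counts in replicate 1 only. The RNA sensor Ddx58 was at 23.6 and 22.6 TPM and the inflammasome sensor Nlrp3 had counts in replicate 1 only.

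The acute phase list showed the secreted pattern recognition gene Ptx3 (202 and 223 TPM) at high level. The early complement protease genes C1ra and C1s1 were at 39.5 to 41.2 and 16.7 to 19.1 TPM, with 59.6% and 47.6% of stretches shared. C3 (1.66 and 2.26 TPM) and Lcn2 (1.96 and 1.79 TPM) were near the threshold. Saa3 was at 0.252 and 0.504 TPM, and Saa1 and Saa2 had no counts. In all, 8 of 18 were expressed, or 4 of 18 at a threshold of 2 TPM. The count was also 4 when genes with 25% or more of their stretches shared were left out. That share is reached by 9 of the 18, so low or 0 counts of those genes are uncertain.

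Of 22 genes listed as ligands of the TGF-beta superfamily, 12 were expressed. Bmp1 is among the 12, though it encodes a procollagen protease and not a growth factor. Bmp4 led with 306 and 329 TPM and its receptor Bmpr1a was at 60.3 and 66.5 TPM. Tgfb3 (135 and 127 TPM) and Tgfb2 (47.2 and 51.8 TPM) exceeded Tgfb1 (9.21 and 8.27 TPM). Inhba, the activin A chain, was at 79 and 85.4 TPM. Both TGF-beta receptors were expressed, Tgfbr2 at 52 and 51.5 TPM and Tgfbr1 at 11.2 and 10.7 TPM. Of 14 genes listed as antagonists, 9 were expressed, with Fstl1, a follistatin-like protein, at 1190.1 and 1192 TPM. Lrrc32 (GARP), at 48.2 and 43.3 TPM, is among the 9, though it holds latent TGF-beta at the surface and is not an antagonist. The genes of latent TGF-beta binding proteins Ltbp1 and Ltbp3 are among them too, so the 9 is not a count of antagonists alone.

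Ligands of receptor tyrosine kinases were expressed for 24 of 41 genes. The lymphatic growth factor Vegfd stood far above the others with 545 and 598 TPM, and its relative Vegfc was at 4.14 and 3.91 TPM. Their receptor Flt4, at 0.176 and 0.137 TPM, and Kdr, at 0.233 and 0.457 TPM, were below the threshold. Gas6 was at 63.9 and 65.7 TPM. Its receptor Axl, at 227 and 218 TPM, was the most abundant of 42 genes listed as receptor tyrosine kinases, 22 of which were expressed. That list also held Igf2r, an expressed receptor without a kinase domain. Pdgfa and Pdgfc, which bind PDGFRA, were at 45.4 to 46.5 and 23.9 to 24.8 TPM. Pdgfb, the main ligand of PDGFRB, was at 0.126 and 0.135 TPM and Pdgfd at 4.17 and 4.17 TPM. Bdnf (55.7 and 58.2 TPM) had counts while its receptor Ntrk2 did not. Met, the receptor of hepatocyte growth factor, was at 92.4 and 90.4 TPM and Hgf itself at 0.128 and 0.0523 TPM. Igf1 was at 39.7 and 39.9 TPM with Igf1r at 21.4 and 21.8 TPM, and Igf2 had no counts, though 63.1% of its stretches are shared.

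Among developmental signals, the Notch ligand gene Jag1 was at 242 and 242 TPM, and the other 4 ligand genes were at trace level. Of the receptors, Notch3 and Notch2 (36 and 33.9 TPM) exceeded Notch1 (7.01 and 7.24 TPM), and the target Hes1 was at 25.8 and 28.8 TPM. Wnt ligands were expressed for 6 of 18 genes, with Wnt5a highest at 25 and 24.4 TPM. Of the secreted antagonist genes, Sfrp1 was at 228 and 217 TPM and Dkk3 at 113 and 113 TPM after Sfrp2, Dkk2 was at 1.14 and 1.52 TPM, Sfrp4, Sfrp5 and Wif1 were at trace level, and Frzb and Dkk1 had no counts. Frizzled receptors were led by Fzd2 (112 and 109 TPM). Of 10 Hedgehog genes, 4 were expressed. The transducer Smo was at 80.9 and 77.2 TPM and the receptor Ptch1 at 6.54 and 6.1 TPM, and Gli2 and Gli3 were expressed too. Gli1, a target of the pathway, was at 0.369 and 0.601 TPM and Shh had no counts. Slit3 (42.6 and 49 TPM) and Slit2 (32.3 and 34.7 TPM) were expressed without Robo1 or Robo2, and Ntn1 (29.3 and 27 TPM) together with Unc5b (178 and 174 TPM).

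When 88 ligands were set against their receptors, both sides were expressed for 37 and neither for 6. The ligand alone was expressed for 21 and a receptor alone for 24. A receptor side counted as expressed when any of its listed receptors was, and single chains stood for receptors of several chains. Over all protein-coding genes 49.8% were expressed. Whether both sides were expressed together more often than unrelated genes was not tested. Pairs with both sides at medium level or above included Gas6 and Axl, Bmp4 and Bmpr1a, Jag1 and Notch3, Tgfb3 and Tgfbr2, Igf1 and Igf1r, Ntn1 and Unc5b, and Ereg and Egfr, the last at 22.4 and 23.3 and 53.8 and 51.8 TPM. Ligands without an expressed receptor in these libraries included Csf1, Ccl2, Ccl7, Cxcl1, Cx3cl1, Il33, Bdnf and Edn1. Edn1 was at 21.6 and 24.1 TPM, with Ednra at 0.0721 and 0.0343 TPM. Csf1r, Il1rl1 and Ednra had counts but were below the threshold. Receptors without an expressed ligand included Ltbr, Tnfrsf1a, Osmr, Pdgfrb for Pdgfb, Met and the interferon receptors. Expression of both sides says nothing about whether protein was made or bound. The plot of ligand against receptor shows how far each pair is from the threshold.

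**Figure D4:**
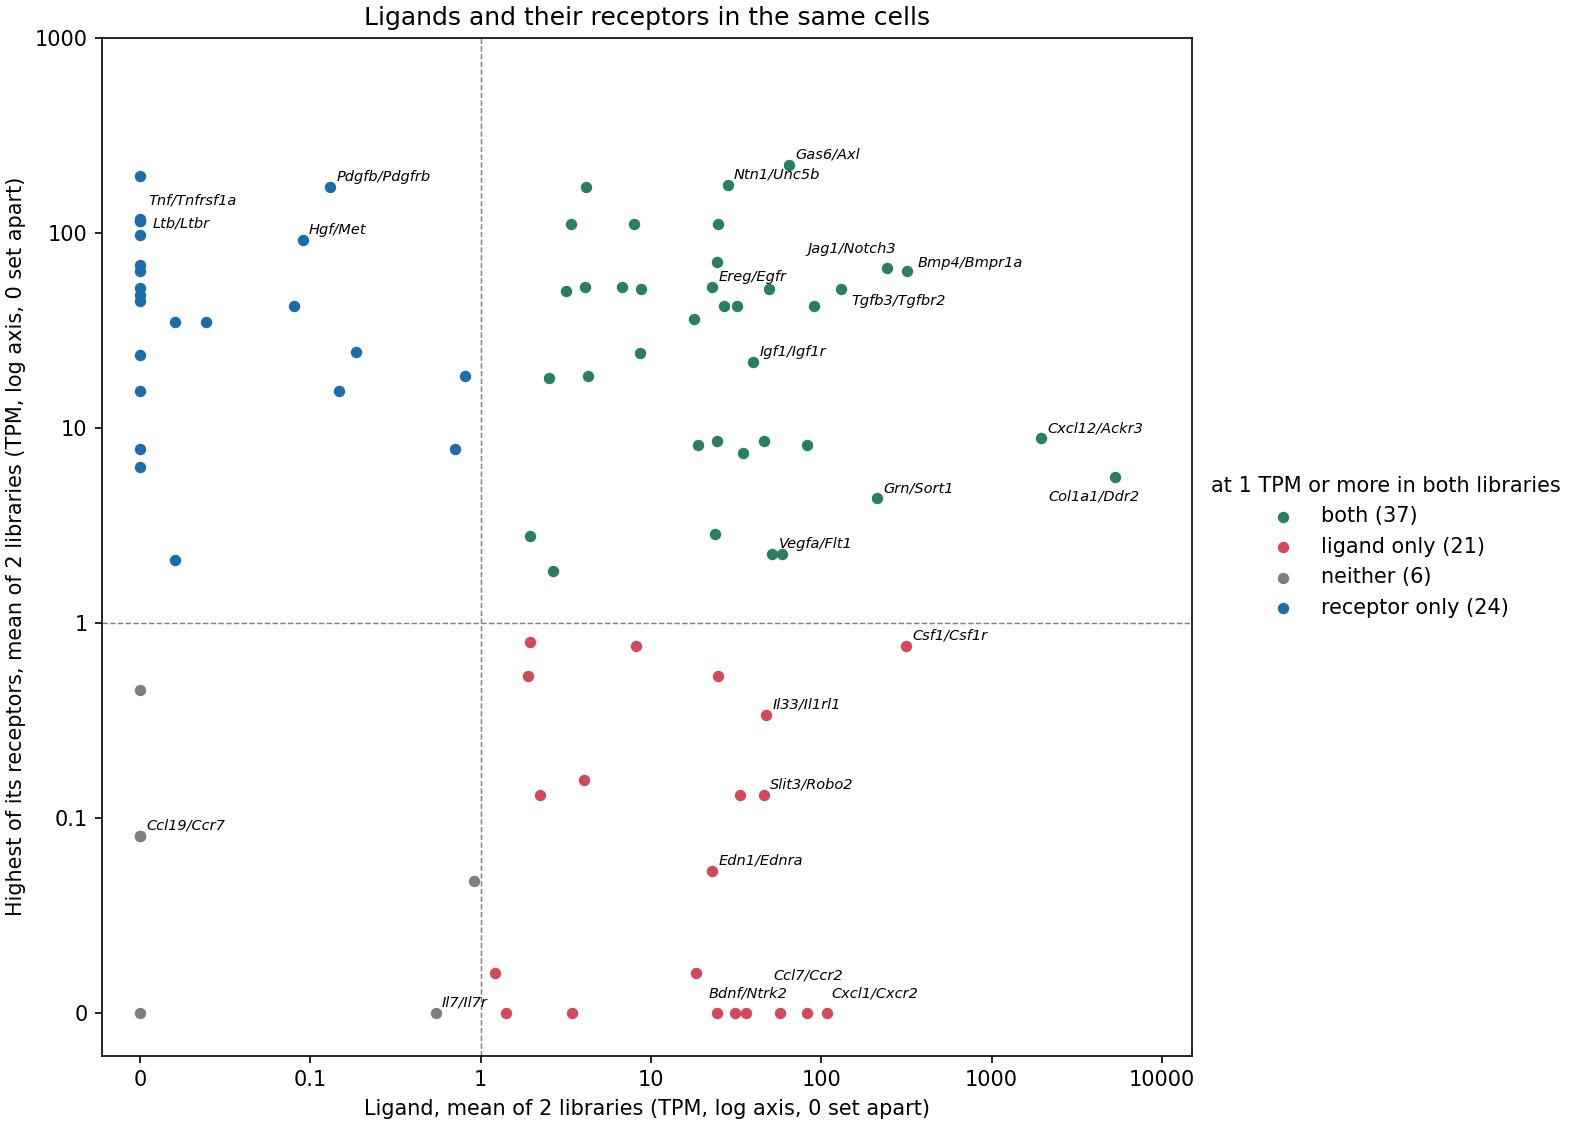
Level of each of 88 ligands (horizontal, TPM) against that of the most abundant of its listed receptors (vertical, TPM), means of the 2 libraries on log axes with 0 set apart at the margin; dashed lines are 1 TPM and colours give which side was expressed in both libraries. Csf1 and Cxcl1 lie far to the right below the line, and Tnf, Ltb, Pdgfb and Hgf lie at the left above it.

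Of 38 receptors coupled to G proteins, 12 were expressed, with the thrombin receptor F2r highest at 193 and 204 TPM. Npr3, a clearance receptor for natriuretic peptides, was at 94.3 and 109 TPM, and the sphingosine and lysophosphatidic acid receptors S1pr2 (21 and 21.6 TPM) and Lpar2 (11.8 and 11.6 TPM) were at medium level. Gpr183, Agtr1a and Ednrb had no counts. Of 22 nuclear receptor genes, 16 were expressed, the highest being the retinoic acid receptor Rarg (74 and 67.7 TPM) and the glucocorticoid receptor Nr3c1 (69.2 and 71.6 TPM). The oestrogen receptor Esr1 was at 12.2 and 12.4 TPM and Pgr had no counts.

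Of 12 genes of MHC class I presentation, 8 were expressed, or 5 when genes with 25% or more of their stretches shared are left out. B2m was at 1262 and 1288 TPM, H2-D1 at 66.5 and 64 TPM and H2-K1 at 11.6 and 11.1 TPM, the first H2 value with 26.9% of its stretches shared. The immunoproteasome genes Psmb8 (1.13 and 0.666 TPM) and Psmb9 (0.827 and 1.23 TPM) were at the edge of the threshold. Of 14 genes of class II and co-stimulation, 4 were expressed. They were Cd276, Cd80 at 4.08 and 4.06 TPM, the invariant chain gene Cd74 at 3.06 and 2.8 TPM and H2-DMb1 at 1.72 and 2.12 TPM, the last with 31.4% of its stretches shared. The class II genes H2-Ab1 and H2-Eb1 had counts in replicate 2 only, and H2-Aa had none. Ciita, their activator, had counts in replicate 1 only. Among checkpoint and T cell regulators, Cd276 was at 38.9 and 36.1 TPM and Lgals9 at 218 and 212 TPM, Cd274 (PD-L1) was at 0.254 and 0.415 TPM, and Nos2, Ido1, Arg2 and Pdcd1lg2 had no counts. Ptgs2, the inducible prostaglandin synthase, was at 10.3 and 11.2 TPM and the downstream Ptges at 0.167 and 0.191 TPM.

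Genes of mitosis and replication were all at medium level (17 of 17, median 37.7 TPM). Mki67 was at 36.2 and 38.4 TPM, Top2a at 59.4 and 60.3 TPM and Pcna at 55.6 and 61.5 TPM. Inhibitors of the cycle were expressed beside them, with Cdkn2a, whose products act on the Rb and p53 pathways, at 244 and 239 TPM and Cdkn2b at 187 and 195 TPM. Cdkn1a, a p53 target, was at 90.2 and 98.4 TPM, Trp53 at 42.5 and 41.1 TPM and Rb1 at 13.6 and 15.2 TPM. Of the D cyclins, Ccnd2 was highest (229.8 and 249 TPM), and Cdk4 was at 277 and 275 TPM. Tert was low, with 2.52 and 2.13 TPM.

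Hox genes, which pattern the body axis and whose use differs between fibroblasts of different sites, were expressed for 18 of 39. Cluster A had 7 of 11, cluster B 7 of 10, cluster C 0 of 9 and cluster D 4 of 9. The highest were Hoxd8 (36.5 and 39.7 TPM), Hoxd9 (38 and 36.8 TPM) and Hoxb9 (27.3 and 27.4 TPM). In cluster D, levels ended between Hoxd10 (16.8 and 14.3 TPM) and Hoxd11, which had no counts, as had Hoxd12 and Hoxd13. In cluster A, Hoxa10 was at 8.005 and 7.23 TPM and Hoxa11 and Hoxa13 were at 0. Cluster C was at 0 in 8 of its 9 genes, with a single count for Hoxc4. Hoxa9, between expressed neighbours, was at 0.801 and 0.807 TPM, and Hoxb13, the last gene of cluster B, had no counts.

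**Figure D5:**
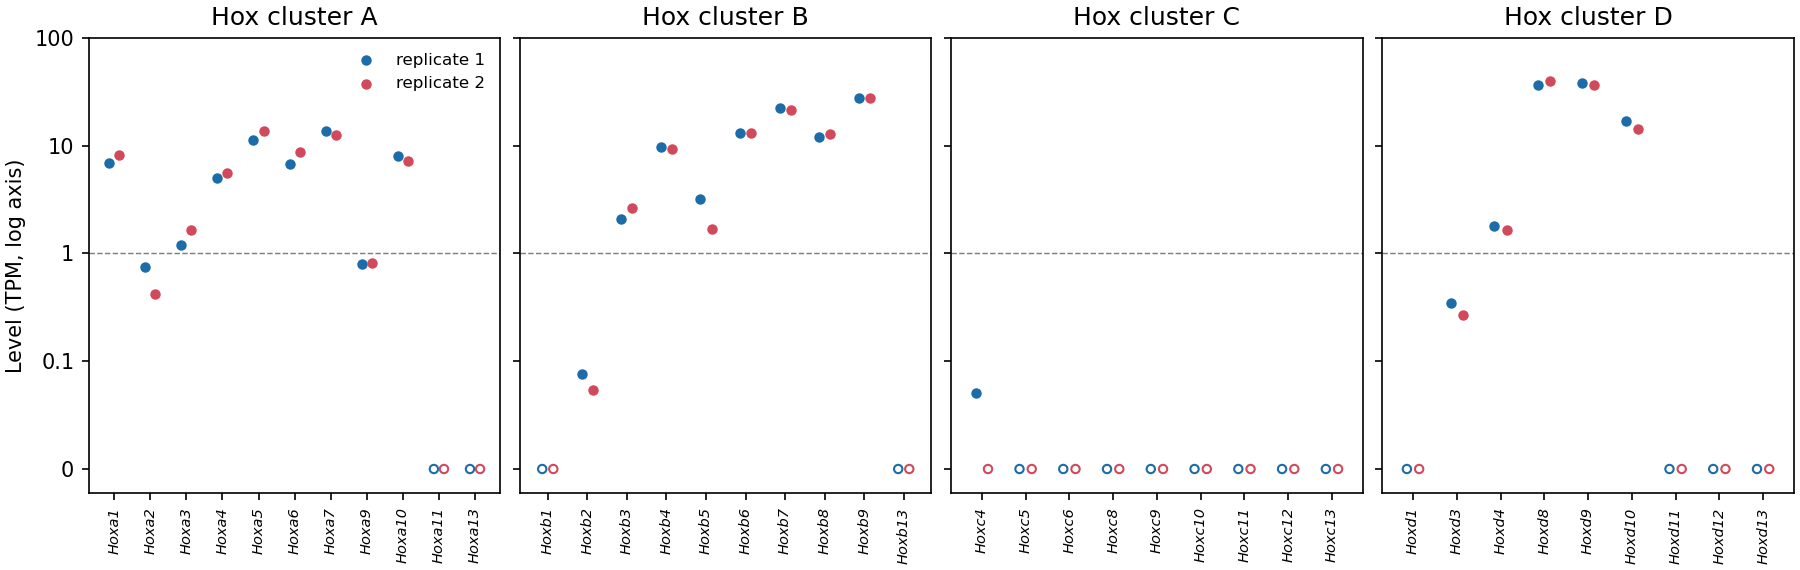
Level (TPM, log axis, 0 set apart as open circles) of the genes of the 4 Hox clusters in order of their number, in replicate 1 (blue) and replicate 2 (red); the dashed line is 1 TPM. The highest points are Hoxb9, Hoxd8 and Hoxd9, the last genes of clusters A, B and D are at 0, and cluster C has no gene above the line.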

How the data were processed

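The authors deposited unnormalized read counts by gene symbol for all libraries in 1 table. Per the submitters' processing notes, Subread, mm10 and DESeq2 1.32.0 were used. The role of each, the annotation, the strand setting and the rule for reads that match several places were not given in the sources used here. Low or 0 counts of genes with shared stretches, and counts of genes that overlap others on either strand, are therefore uncertain. A second deposited table holds the same counts for 14629 genes. Of 55367 symbols, 53365 matched GENCODE M21 (GRCm38, the assembly of mm10); those without a match held 1.25% and 1.24% of the counts. Where a symbol had several gene identifiers (112 symbols), reads cannot be divided among them. CPM is the count per 1000000 of the library total. TPM divides counts by the summed length of a gene's exons and scales to 1000000 over the matched symbols. No test was made, because 1 group of 2 libraries allows none. Over the expressed genes, the squared difference between the libraries averaged 4.29 times that of counting noise alone. Genes with many counts weigh most in this mean, and the median ratio between the libraries was 1.07 times. Neither value shows that the libraries are separate cultures.

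The members, the lists and the pairs were chosen with earlier results of these data known. Named were the 25 genes highest by TPM (given by class) and 15 by CPM, the identity list, the 3 highest of each other list and members that define a cell type or pathway when low; further genes of the lists, and those singled out for chains, loops and promoters, were chosen after their values were seen. Some list members are counted in the totals but not reported by name or plotted. Shared stretches are 31-base runs, on either strand, found in transcripts of another symbol. Counting and spread steps were tested on simulated data. Tools were Python 3.11.15, pandas 2.3.3, numpy 2.4.6, matplotlib 3.10.9, R 4.3.3, edgeR 4.0.16 and DESeq2 1.42.0, the last 2 for scaling factors only.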

Additional observations from a re-analysis of the deposited data

How the results depend on the processing

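No paired analysis was possible because only 1 group of 2 libraries was used. The alternatives were thresholds of 0.5 and 2 TPM or 1 CPM, the length of the longest transcript, each library alone, thinning to the smaller total, the genes of the filtered table and, added after seeing the data, TPM over nuclear protein-coding genes and leaving out genes with shared stretches. Expressed genes numbered 10490 to 14429 beside 13424, list members 485 to 562 beside 527, and pairs with both sides 33 to 43 beside 37. Of olfactory and vomeronasal receptor genes, 1 was expressed, 2 at 0.5 TPM, 1 to 2 when a library was left out and 0 without genes of shared stretches. The first 10 genes took a mean of 6.88% of the counts, 6.996% without mitochondrial genes and 6.82% to 6.95% in each library alone. Genes 1.5 times or more apart numbered 622, or 83 at 10 TPM or more. They numbered 621 with TMM and 622 with DESeq2 scaling. Over all lists and alternatives, 590 of 610 counts were within 1.5 times of the count given and 20 were not. The latter included TNF family ligands (4, and 2 at 2 TPM), mesothelial genes (2, and 1 at 2 TPM) and class I presentation (8, and 5 without genes of shared stretches). Depth limits the low levels: the median smaller count was 82 at low level, 580 at medium and 2493 at high level.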

Other observations

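Among nuclear protein-coding genes outside the lists, the matricellular gene Ccn3 was at 1560.3 and 1794 TPM, Cpe (carboxypeptidase E, of peptide hormone processing) at 1469 and 1545 TPM and the fatty acid desaturase gene Scd2 at 1013 and 1069 TPM. The semaphorin receptor Plxnb2 was at 277 and 279.6 TPM, and 17 of 27 semaphorin, netrin and receptor genes were expressed. Ephrins and their receptors were expressed for 14 of 22 genes, with Efnb2 at 86.3 and 94.3 TPM and its receptor Ephb4 at 42.2 and 41.8 TPM. These genes were chosen after their values were seen.

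Of the 10 genes that differed most among those at 10 TPM or more in both libraries, 9 were processed pseudogenes and 1 a small nucleolar RNA, Snord72 (11.4 and 25.5 TPM). The widest was Gm10566, a processed pseudogene with 16 and 49 TPM and 90.6% of its stretches shared. Of the 622 genes 1.5 times or more apart, 401 were higher in replicate 1 and 221 in replicate 2.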
